A study of Mus musculus with 2 samples.

Results

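The genes described are 10 of the 32285 in the count tables, chosen by symbol for their place in bone morphogenetic protein (BMP) signalling: the targets Id1, Id2, Id3 and Id4, the SMAD genes Smad6, Smad7 and Smad9, the pseudoreceptor Bambi, the ligand Bmp4 and the receptor Bmpr1a. R1 mouse embryonic stem cells, an established line, were kept for 72 hours in N2B27 medium in 2 conditions, and 1 droplet single-cell library was made from each. LB cells received the cytokine LIF and the ligand BMP4 on gelatin. LBPXRS cells received LIF and BMP4 together with PD0325901 (a MEK inhibitor), Xav939 (a tankyrase inhibitor that dampens WNT signalling), SB431542 (an inhibitor of the NODAL, activin and TGF-beta type I receptors) and Resorcyclic lactone, on fibronectin. Both groups thus carried added BMP4 and LIF, and the effects of the inhibitors and of the coating cannot be told apart. The study asks how the FGF, TGF-beta and WNT pathways limit the response of these cells to BMP4.

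BMP ligands bind a pair of type I and type II receptors, among them the product of Bmpr1a, which phosphorylate SMAD1, SMAD5 and SMAD9. With SMAD4 these enter the nucleus and switch on target genes, of which the Id genes are the best known. ID proteins lack a DNA-binding region and hold E proteins away from DNA, and in mouse embryonic stem cells they are known as mediators of the self-renewal that BMP4 supports beside LIF. Smad6, Smad7 and Bambi are targets as well and feed back as inhibitors.

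LB held 1783 kept cells with 45490517 UMIs (unique molecular identifiers, 1 per captured RNA molecule) and a median of 25418 UMIs per cell, and LBPXRS held 2705 cells with 51832444 UMIs and a median of 19058. Levels are UMIs summed over the cells of a library per 1000000 UMIs (CPM), with exact 95% Poisson intervals that cover counting error only. With 1 library per condition no difference could be tested, so sizes are given without p-values. The pluripotency factor Pou5f1, a defining marker of these cells, was found in 94.3% of LB and 99.5% of LBPXRS cells. The pluripotency factor Sox2 was found in fewer LB cells, 58.9% against 88.9% in LBPXRS, at 123 and 232 CPM. Cell type markers moved with the condition: the 11 mesoderm markers summed to 154 CPM in LB and 4.86 in LBPXRS (10 of 11 at least 2-fold lower, Hand1 at 0), the 10 primitive streak markers to 347 and 17.3 (8 lower, 1 higher, Evx1 at 0), and the 10 trophoblast markers to 443 and 54.2 (6 lower, 1 higher). The 10 formative markers summed to 579.5 and 135 CPM (8 lower), the 12 naive markers to 1174 and 1856 (8 higher, 1 lower), and the 9 primitive endoderm markers to 22.0 and 47.7 (2 lower, 2 higher). The cultures also differed in Y-linked RNA, with 2872 UMIs in LB and 1 in LBPXRS, and 8 kept barcode sequences occurred in both libraries. Leaving chromosomes 8, 11 and Y out of the totals, a setting added after seeing the data, only rescales the CPM of the 10 genes. It changed none of the counts of the 10 genes in the next paragraph, nor did leaving out the shared barcodes. Such rescaling cannot show whether a difference between the cultures beyond the media goes with the gene differences, and this was not tested. Comparisons with parts of LB are given below.

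Of the 10 genes, 4 were at least 2-fold lower in LBPXRS than in LB on the log2(CPM + 1) scale (Id1, Id3, Bambi and Bmp4), against 11.6% of the 12618 genes whose CPM averaged 1 or more over the libraries. Only Id4 was at least 2-fold higher, against 8.53% of those genes, and the other 5 lay between. At least 4-fold lower were Id1, Id3 and Bmp4, against 2.83% of all genes. The median log2 ratio of the 10 genes was -0.65, beside -0.14 for all genes.

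The Id genes, which encode the inhibitors of DNA binding, went in both directions. Id1 (ENSMUSG00000042745, chr2:152736251-152737410, GRCm38) stood at 175 CPM in LB (171.5 to 179) and 17.8 in LBPXRS (16.7 to 19.0), 9.83-fold higher in LB (9.18 to 10.5). Id3 (ENSMUSG00000007872, chr4:136143497-136145755) stood at 147 CPM (144 to 151) and 6.33 (5.66 to 7.05), a 23.25-fold difference (20.8 to 26.05). These are the Id genes with the widest gaps. Id2 stood at 57.4 CPM in LB (55.2 to 59.7) and 33.4 in LBPXRS (31.8 to 35.0), a log2 ratio of -0.77. Id4 (ENSMUSG00000021379, chr13:48261228-48266026) went the other way, at 5.41 CPM in LB (4.75 to 6.13) and 14.95 in LBPXRS (13.9 to 16.0), 2.765-fold higher in LBPXRS (2.39 to 3.20). The E protein genes whose products ID proteins bind differed less: Tcf3 stood at 89.9 and 89.3 CPM, and the log2 ratios of Tcf4 and Tcf12 were -0.54 and -0.38.

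Bmp4 (ENSMUSG00000021835, chr14:46383520-46390669), the cells' own transcript of the ligand that both media supplied as protein, showed the widest gap of the 10. It had 2090 UMIs in LB, or 45.9 CPM (44.0 to 48.0), and 21 UMIs in LBPXRS, or 0.405 CPM (0.251 to 0.619), 113-fold higher in LB (74.0 to 184). The receptor gene Bmpr1a had a much smaller difference, at 14.8 CPM (13.7 to 16.0) and 9.97 (9.13 to 10.9). Nearly all endogenous Bmp4 RNA of the series was thus in LB, while its receptor RNA was in both libraries.

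Among the feedback inhibitors, Bambi, which encodes a receptor-like protein without a kinase domain, stood at 53.7 CPM in LB (51.6 to 55.9) and 21.7 in LBPXRS (20.4 to 23.0), 2.48-fold higher in LB (2.31 to 2.66). Smad6, an inhibitory SMAD that favours BMP receptors, stood at 9.36 CPM (8.50 to 10.3) and 6.50 (5.83 to 7.23). Smad7, an inhibitory SMAD that acts on BMP and TGF-beta receptors, was close in both, at 38.1 CPM (36.4 to 39.98) and 31.1 (29.6 to 32.7). Smad9, which encodes one of the SMADs that BMP receptors phosphorylate, was low in both, at 0.967 CPM (0.703 to 1.30) and 2.32 (1.92 to 2.77), 2.39-fold higher in LBPXRS (1.68 to 3.46). Genes on the opposite strand overlap Id4, Bmp4 and Bmpr1a, and they were sparse: Gm15222, inside Bmp4, had 50 UMIs in LB and 4 in LBPXRS, and the others had at most 7 in either library.

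**Figure D1:**
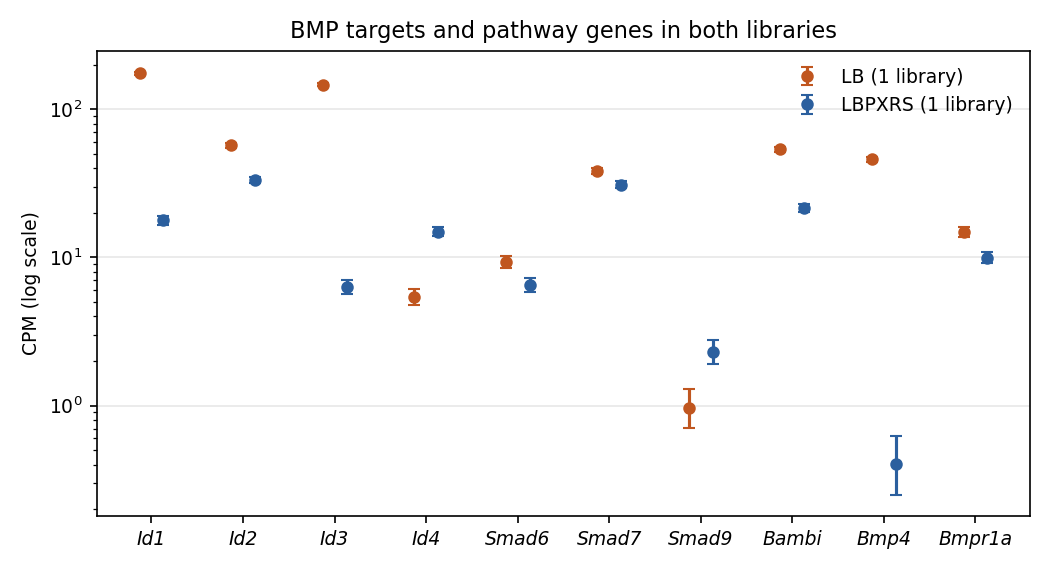
Level of each gene in LB (orange) and LBPXRS (blue), in CPM on a log axis; points are sums over 1 library and bars are exact 95% Poisson intervals for counting error. Id1, Id3, Bmp4 and Bambi lie lower in LBPXRS, Id4 and Smad9 higher, and Smad7 nearly level at 38.1 and 31.1 CPM.

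The promoters of Bmp4 and Id4 are shown because Bmp4 had the widest gap and Id4 was the Id gene higher in LBPXRS. Each is the 250 bases before the RefSeq start site in GRCm38.p6, outside the exons of the GENCODE annotation used. Capitals mark 3 motifs known from SMAD binding, searched on both strands. They are GGCGCC, which reads the same on either strand, then the motif GGAGCC, which reads GGCTCC on the other strand, and the short motif GTCT, which reads AGAC on the other strand. No matches overlap here. They are chr14:46390670-46390919 on the minus strand for Bmp4 and chr13:48260866-48261115 on the plus strand for Id4, printed 5′ to 3′.
Bmp4: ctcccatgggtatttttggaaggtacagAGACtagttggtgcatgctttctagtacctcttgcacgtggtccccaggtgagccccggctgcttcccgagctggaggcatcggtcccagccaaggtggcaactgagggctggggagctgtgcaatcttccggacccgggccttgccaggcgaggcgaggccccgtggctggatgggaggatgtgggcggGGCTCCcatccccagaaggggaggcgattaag
Id4: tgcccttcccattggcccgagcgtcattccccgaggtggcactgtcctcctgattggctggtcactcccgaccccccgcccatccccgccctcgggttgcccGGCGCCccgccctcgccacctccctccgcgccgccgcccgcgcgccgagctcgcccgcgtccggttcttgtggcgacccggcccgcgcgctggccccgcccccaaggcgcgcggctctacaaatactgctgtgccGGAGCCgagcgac
Bmp4 held 1 match of GGAGCC and 1 of the short GTCT, and Id4 held 1 match of GGCGCC and 1 of the motif GGAGCC. Over 32851 promoters of this length in the RefSeq table, 9.59% held GGCGCC, 25.97% held the motif GGAGCC and 82.9% held GTCT, so the matches are a description and not sites. Of the 10 genes 7 had an entry; Id1, Smad7 and Bambi had none. In the same window Smad9 held 1 match of each motif. Smad6 held no GGCGCC, 2 matches of GGAGCC and 1 of GTCT. The windows of Id2, Id3 and Bmpr1a overlap annotated exons and are not described.

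To compare detection at equal depth, cells were cut down by random sampling to 5000 UMIs each (thinned), leaving 1733 cells of LB and 2621 of LBPXRS; intervals are exact binomial (Clopper-Pearson) at 95% and cover counting error over the cells of 1 library, not differences between cultures. Id1 was seen in 33.6% of the LB cells (31.4 to 35.9), while 5.76% of those in LBPXRS had it (4.90 to 6.72). The share with Id3 was 34.05% in LB (31.8 to 36.3) and 1.64% in LBPXRS (1.19 to 2.20). Bmp4 had a UMI in 14.0% of cells in LB (12.4 to 15.7) but in 3 of the 2621 in LBPXRS (0.114%, 0.0236 to 0.334). The other shares were closer: Id2 was found in 19.0% and 13.3%, Bambi in 19.2% and 9.84%, Smad7 in 15.5% and 14.6%, and Id4 in 2.25% and 6.91%. Without thinning the shares in LB and LBPXRS were 62.7% and 15.1% for Id1, 59.96% and 4.62% for Id3, and 30.6% and 0.776% for Bmp4. The LBPXRS interval lay below that of LB for 6 of the 10 genes and above it for 2 (Id4 and Smad9), against 33.3% and 20.9% of the 11866 genes found in at least 1% of cells of either library. Smad6 and Smad7 had overlapping intervals at 5000 UMIs. With 10000 UMIs per cell the LBPXRS interval lay below for 7 genes, and without thinning, where depth differs between the libraries, for 8. It lay above for 2 in both settings. The share over all genes was counted at 5000 UMIs only. Since the cells of a library are not replicates, this describes the libraries and is no test of the conditions.

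Id1, Id2, Id3, Bmp4 and Bambi were unevenly spread among LB cells. After thinning, the variance over the mean of the counts, which is 1 for counting noise alone, was 3.56 for Id1, 2.49 for Id3, 2.18 for Bmp4, 1.86 for Id2 and 1.71 for Bambi. It lay between 0.990 (Bmpr1a) and 1.12 (Id4 and Smad7) for the others; for sparse counts a value near 1 does not show an even spread. Before thinning, Id1 reached 94 UMIs in a single LB cell and Id3 reached 73, while Bmpr1a did not exceed 4. The highest thinned counts of these genes were 15, 12 and 2.

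LB cells with the mesoderm and trophoblast regulator Hand1 carried Bmp4, Smad6 and Bambi far more often than other LB cells. Of the 1733 thinned cells 241 had a Hand1 UMI (13.9%), with a median depth of 24960 UMIs before thinning against 25725 in the rest. Bmp4 was found in 41.5% of the cells with Hand1 (35.2 to 48.0) and 9.52% of those without, at 174 and 25.1 CPM. Bambi was found in 48.1% (41.7 to 54.6) and 14.5%, at 181 and 32.9 CPM. Smad6 was found in 10.8% (7.17 to 15.4) and 2.61%, at 29.3 and 6.16 CPM. Cells with both Hand1 and the gene were 2.97 times as many as independence would give for Bmp4, 2.88 times for Smad6 and 2.505 times for Bambi. Id1, in 51.5% and 30.7%, reached 1.53 times, and Id3, in 49.0% and 31.6%, reached 1.44 times. In all, 4 of the 9 genes found in at least 1% of LB cells reached 1.5 times, against 15.6% of 11085 genes, and Id4, with 3 cells where 5.42 would be expected, was the one at or under 1/1.5, against 14.5%. Id4 did not stay there with 10000 UMIs per cell (0.849 times) or without thinning (0.912 times). The count past 1.5 times was 3, without Id1, with a gate of 2 Hand1 UMIs, with 10000 UMIs per cell, without thinning, and outside the naive-like cluster (below). The share over all genes was counted in the main setting only, so these counts have no background. The sizes were smaller in some of these settings: without thinning Bmp4 was at 1.79 times and Bambi at 1.61 times, and outside all clusters with naive markers Smad6 was at 1.845 times, Bmp4 at 2.05 times and Bambi at 1.68 times.

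Cells with T (Brachyury, a primitive streak and nascent mesoderm factor) had a different profile, in which Id1 and Id2 were more frequent than in the rest and Bmp4 and Bambi were not. The 310 thinned LB cells with T (17.9%) had a lower median depth than the rest before thinning, 22973.5 against 26435 UMIs. Id1 was found in 49.0% of them (43.3 to 54.7) and 30.2% of the rest, at 286.5 and 153 CPM. Id2 followed with 24.8% (20.1 to 30.04) and 17.7%. Id3 had the opposite order in share, 28.7% (23.7 to 34.1) and 35.2%, with levels of 136.5 and 150 CPM, and Bmp4 had nearly equal shares of 13.9% and 14.0%. None of the 9 genes reached 1.5 times the expected number of cells with T, against 10.4% of all genes, and none lay at or under 1/1.5, against 12.7%. Outside the naive-like, Calb2 and Slc7a3 clusters (below), Id1 was at 1.08 and Id2 at 0.899 times the expected number of cells with T, so their excess depended on those cells being in the comparison.

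Krt8, a keratin of simple epithelia and trophoblast, was found in 467 thinned LB cells (26.9%), with nearly equal median depths of 25825 and 25614 UMIs with and without it. Bmp4 was found in 27.6% of them (23.6 to 31.9) and 8.93% of the rest, 1.98 times the expected number of cells with both. Smad6 reached 1.83 times and Bambi 1.67 times, with Bambi in 32.1% and 14.5%. Id2 followed at 1.44 times, with shares of 27.4% and 15.9%. The 3 genes past 1.5 times compare with 9.45% of all genes, and Id4, with 6 cells, was again the one at or under 1/1.5, against 9.08%. Id4 rose to 0.794 times with a gate of 2 Krt8 UMIs, 0.779 with 10000 UMIs per cell and 0.917 without thinning. Of the Krt8 cells 34.0% also had Hand1, and 66.0% of the Hand1 cells had Krt8. Without thinning no gene reached 1.5 times for Krt8, outside the naive-like cluster Bmp4 alone did, at 1.62 times, and with the Calb2 and Slc7a3 clusters (below) left out too none did, so this count depends on depth and on the cells compared. Here too the share over all genes was counted in the main setting only.

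**Figure D2:**
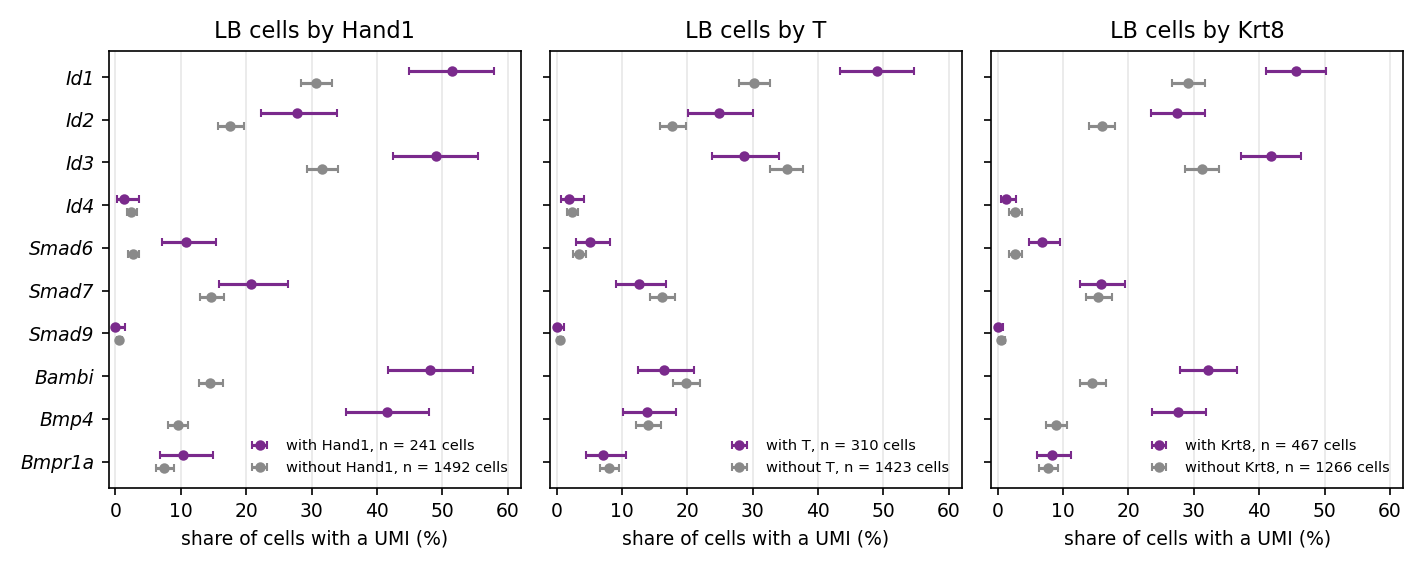
Share of thinned LB cells with a UMI of each gene (x axis, percent), for cells with (purple) and without (grey) a UMI of Hand1, T or Krt8; bars are exact 95% binomial intervals. Bambi and Bmp4 stand at 48.1% and 41.5% in Hand1 cells against 14.5% and 9.52% in the rest, and in the T panel only Id1 and Id2 have intervals that do not overlap.

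LB cells were next split by T and Hand1 into exclusive groups, which still shared Krt8: 69.2% of the cells with Hand1 and no T, 40.9% of those with T and no Hand1 and 52.2% of those with both had it. The 195 cells with Hand1 and no T had Bmp4 at 191 CPM (179 to 203) and Bambi at 198 (186 to 210). The 264 cells with T and no Hand1 had them at 19.9 CPM (16.6 to 23.7) and 34.9 (30.5 to 39.9), beside 17.8 (16.3 to 19.5) and 26.5 (24.6 to 28.5) in the 1028 cells with none of the markers, so that the Bmp4 intervals overlap and those of Bambi do not. The 46 cells with both lay between, at 97.7 and 104 CPM. In the 200 cells with Krt8 alone they stood at 70.1 and 65.0 CPM. Id1 was lowest in the cells with no marker, at 123 CPM (119 to 127), and highest in those with T and Hand1, at 421 (384 to 461). Id3 in T cells without Hand1, at 113 CPM (105 to 122), was like that in cells with no marker, at 118 (114 to 123), whereas Hand1 cells without T had 247 (234 to 261).

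Some of the genes occurred together in the same LB cells more often than independence would give. Of the 34 pairs among the 10 genes for which at least 5 shared cells would be expected, 8 reached 1.5 times the expectation and none lay at or under 1/1.5, against 3.13% and 5.86% of all such gene pairs in the library. Bambi and Bmp4 shared 101 cells where 46.5 would be expected (2.17 times), and Smad6 reached 2.16 times with Bambi and 2.09 times with Bmp4. Within the Id family, Id1 and Id2 shared 191 cells (1.73 times), Id2 and Id3 185 (1.65 times) and Id1 and Id3 307 (1.55 times), whereas Id4 was at 0.916 times with Id1, 0.904 with Id3 and 1.08 with Id2. Smad7 was near independence with Bmp4 (0.985 times) and with Bmpr1a (0.995). In LBPXRS 21 pairs had an expectation of at least 5, and 4 reached 1.5 times, against 2.56% of all such gene pairs, among them Id2 with Id3 (17 cells, 2.97 times) and Id1 with Id2 (40 cells, 1.99 times). None lay at or under 1/1.5, against 5.24%.

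Clusters of LB cells were formed without the 10 genes and the other BMP pathway genes, and named only from marker lists. The trophoblast list holds the pathway targets Gata3 and Tfap2a. Hand1, T and Krt8 are in the lists and were not kept out of the clustering. Levels by cluster are thus not independent of the co-expression above. There were a naive pluripotent-like cluster (579 cells), a primitive streak-like cluster with T among its leading genes (261), a mesoderm-like cluster led by Prdm6, Foxf1 and Pitx1 (355) and a trophoblast-like cluster with Cxcl10 and Esx1 among its leading genes (59). Others stayed unnamed: 269 cells led by Pim2, Fgf5 and Dnmt3b, 181 led by Calb2, 61 led by Slc7a3 and Pmel, and 18 shallow cells not described. The Calb2 and Slc7a3 clusters missed the threshold for a name but carried naive markers, which summed to 2028 and 2126 CPM beside 2219 in the naive-like cluster. Interferon-responsive genes (Isg15, Rtp4) were among the leading genes of the streak-like cluster, and the chemokine genes Cxcl10 and Ccl2 among those of the trophoblast-like cluster. Over the 7 clusters of at least 50 cells, 6 of the 9 genes at 1 CPM or more in LB had at least a 4-fold range (Id1, Id2, Id3, Smad6, Bambi and Bmp4), against 28.7% of 12475 genes. Smad9 lay under that minimum.

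Endogenous Bmp4 was concentrated in the mesoderm-like cluster, which held 73.8% of the library's Bmp4 UMIs, 61.5% of its Bambi UMIs and 57.3% of its Smad6 UMIs. Bmp4 stood at 179.5 CPM there (171 to 189), at 33.1 in the trophoblast-like cluster (25.6 to 42.1), at 15.3 in the naive-like cluster (13.5 to 17.3) and lowest in the Fgf5 cluster, at 4.05 (2.73 to 5.78). The number of Bmp4 UMIs per Hand1 UMI was 0.502 in the mesoderm-like and 7.11 in the naive-like cluster, where Hand1 was at 2.15 CPM and in 0.522% of thinned cells and Bmp4 in 6.09%. The part of free RNA in these low shares was not tested.

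The Id genes followed another order. Id1 was highest in the trophoblast-like cluster, at 439 CPM (411 to 469), then in the Fgf5 cluster at 307 (294 to 320), the streak-like cluster at 257 (244 to 271) and the mesoderm-like cluster at 208 (199 to 218). Naive-like cells had 83.7 CPM (79.3 to 88.2) and Calb2 cells 20.6 (16.6 to 25.2), so the Calb2 cells lay near the LBPXRS level of 17.8. Id2 shared both ends of this order, with 136 CPM in the trophoblast-like and 124 in the Fgf5 cluster, whose intervals (120 to 153 and 116 to 132) overlap, and 5.48 in Calb2 cells. Id3 differed in the middle: mesoderm-like cells had 226 CPM (216 to 236), while streak-like cells had 105 (97.2 to 114), which overlaps the naive-like 112 (107 to 117). Id3 UMIs per Id1 UMI ranged from 0.410 in streak-like to 1.63 in Calb2 cells. The members higher in LBPXRS had their highest LB levels in Calb2 cells, with Id4 at 9.42 CPM (6.82 to 12.7) and Smad9 at 2.85 (1.52 to 4.87), though these intervals overlap those of naive-like cells (5.45 to 8.02 and 0.995 to 2.27). Next for Id4 was the trophoblast-like cluster, at 8.52 CPM (4.97 to 13.65), which also overlaps. Smad7 had a narrow range, from 22.9 to 51.15 CPM.

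**Figure D3:**
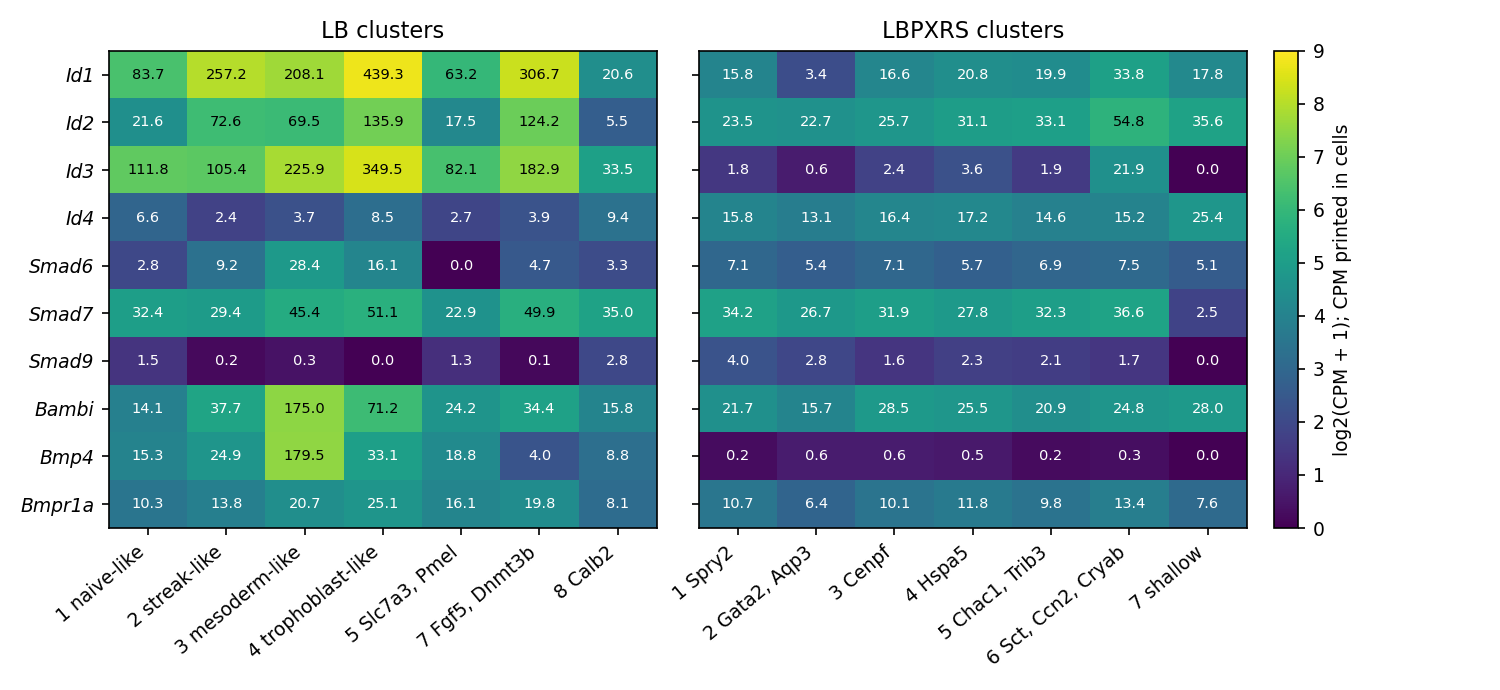
CPM of each gene (rows) in each cluster of at least 50 cells (columns) of LB and LBPXRS; colour is log2(CPM + 1) and the printed number is the CPM. Bmp4 and Bambi peak in the mesoderm-like LB cluster at 179.5 and 175 CPM, Id1, Id2 and Id3 in the trophoblast-like one, and Bmp4 is at or under 0.613 CPM in every LBPXRS cluster.

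The most similar genes over the 1783 LB cells were found by Pearson correlation of log-normalised values among 10949 other genes; these correlations share library and depth and are descriptions. Bambi was most like Hand1 (r = 0.56), Serpinh1 (0.48) and Ppic (0.47), and Bmp4 was most like Pmp22 (0.56), Ppic (0.52) and Hand1 (0.50). Id3 was most like Msx2 (0.32) and Msx1 (0.30), themselves BMP targets, and then Pfn1 (0.30). The closest for Id1 and Id2 reached 0.37 and 0.35 (Gnas and Gng3), and for Smad7 0.19 (Marcksl1), which is weak.

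Comparing LBPXRS with parts of LB changed several directions. Against the LB cells with no UMI of T or Hand1, the log2 ratios were -2.72 for Id1, -4.03 for Id3, -3.94 for Bmp4 and 1.09 for Id4, while Bambi moved from -1.27 to -0.28 and Smad6 from -0.47 to 0.42. Against the named naive-like cluster, a setting added after seeing the data, Id1, Id3 and Bmp4 stayed at least 4-fold lower in LBPXRS, at -2.17, -3.94 and -3.54. Bambi then stood at 0.59, Id2 at 0.60 and Smad6 at 0.97, all higher in LBPXRS. Against the 242 cells of the Calb2 and Slc7a3 clusters, also added after seeing the data, Id1 stood at only -0.55, while Id3 and Bmp4 remained lower at -2.495 and -2.99, Id2 reached 2.07 and Id4 was under 2-fold at 0.75. With these and the naive-like cluster together, 821 cells in all, Id1 stood at -1.91, Id3 at -3.70 and Bmp4 at -3.42. The Id1 difference thus depended on which naive-marker cells of LB were compared. By cluster, the lowest LB value of Id3, 33.5 CPM, lay above the highest LBPXRS value, 21.9, and that of Bmp4, 4.05, above 0.613. For Bmp4 the intervals do not all part. The shallow LBPXRS cluster 7 had 0 UMIs with an upper limit of 9.39 CPM, beside 2.73 to 5.78 for the lowest LB value. The highest LB value of Id4, 9.42 CPM, lay below the lowest LBPXRS value, 13.1, though their intervals (6.82 to 12.7 and 11.3 to 15.1) overlap, and the other 7 genes had overlapping ranges. Of the 12618 genes, 6.02% had every LB cluster above every LBPXRS cluster and 5.18% the reverse.

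**Figure D4:**
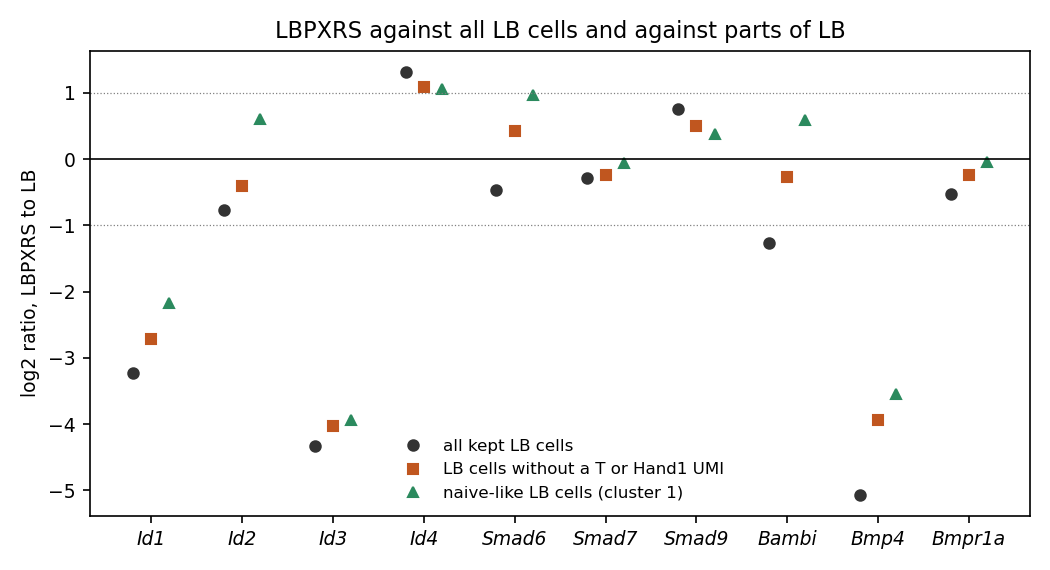
Log2((CPM in LBPXRS + 1)/(CPM in LB + 1)) of each gene against all kept LB cells (circles), LB cells without a T or Hand1 UMI (squares) and the named naive-like LB cluster (triangles); dotted lines mark 2-fold. Id1, Id3 and Bmp4 stay below -2 in all 3 comparisons, and Bambi, Id2 and Smad6 change sign against that cluster.

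Within LBPXRS the remaining Id3 was concentrated in few cells, whereas Id2 and Id4 were spread over 34.6% and 23.1% of unthinned cells. Cluster 6 (701 cells, 25.9%), led by Id3, Krt8, Sct and Ccn2 although Id3 was not used to form it, held 79.3% of the Id3 UMIs. Its Id1 stood at 33.8 CPM and Id2 at 54.75, the highest of the 7 clusters, while the Gata2 and Aqp3 cluster had the lowest of both, at 3.41 and 22.7. Just 12 cells (0.444%), chosen after seeing the values for having at least 5 Id3 UMIs, held 171 of the 328 Id3 UMIs (52.1%). One of these cells had 54 and another 31. Summed over the 12 cells, Id1 stood at 393 CPM (320 to 477) and Id2 at 104 (68.5 to 151), against 15.9 and 33.0 in the other cells, and 11 of the 12 had Id1. Bmp4 was at 0 UMIs in them (upper 95% limit 14.2 CPM). None was called a doublet, had a barcode found in LB, or held a UMI of T, Hand1 or a Y-linked gene. One had 5 UMIs of Gata6 and 4 of Sox17, primitive endoderm factors, with 1 of Pou5f1, and another lacked Pou5f1 and Sox2. Without them, Id3 in cluster 6 was 8.08 CPM in place of 21.9.

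Co-expression with Krt8 in LBPXRS rested on few cells as well. After thinning 45 cells had Krt8, 1 had T and 0 had Hand1 (0 UMIs in 2705 cells), under the 50 cells set for a comparison. A single cell held 296 of the library's 540 Krt8 UMIs (54.8%), with 333 Krt18 and 19 Id3 UMIs and none of Id1, Pou5f1 or Sox2. Without it, Krt8 in cluster 6 was 6.76 CPM in place of 31.7. In unthinned counts 165 cells had Krt8, with a median depth of 21285 UMIs against 18925. Id1 was found in 26.1% of them (19.6 to 33.5) and 14.4% of the rest (13.1 to 15.8), and Id3 in 7.88% (4.26 to 13.1) and 4.41% (3.64 to 5.28), with overlapping intervals for Id3. These were 1.72 and 1.71 times the expected number of cells with both. Bmp4, in 2 of the cells, was too sparse to read, and the other 7 genes lay between 0.863 times (Bmpr1a) and 1.31 times (Smad9).

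The wider pathway was read from a list of 68 genes that includes the 10, of which 46 reached the mean of 1 CPM. Of these, 12 were at least 2-fold lower in LBPXRS and 4 at least 2-fold higher, against 11.6% and 8.53% of all genes. Without the 10 genes, 36 reached that mean, of which 8 were lower and 3 higher. Among ligands, Bmp7 was level at 14.55 and 14.66 CPM, and Bmp2, named after its values were seen, stood at 5.61 and 0.289 CPM. Of the 8 receptors above the minimum none was at least 2-fold lower: the type II receptor Acvr2b stood at 34.4 and 20.7 CPM, and the co-receptor Eng was higher in LBPXRS, at 9.67 and 27.8 CPM. The transducers Smad1 and Smad4 had log2 ratios of -0.73 and -0.66.

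Of 7 extracellular modulators above the minimum, 1 (Fst) was at least 2-fold lower and none higher: Gdf3, a TGF-beta family ligand able to inhibit BMPs, stood at 48.3 and 46.5 CPM, and the antagonist follistatin (Fst) at 39.9 and 10.2. Of the inhibitors inside the cell, Skil and Smurf2 joined Bambi past 2-fold, with log2 ratios of -1.96 and -1.01, the latter at the threshold. Of 13 targets above the minimum 6 were lower and 3 higher, and of the 9 that are not Id genes 4 were lower and 2 higher. The homeobox genes Msx1 and Msx2 stood at 34.9 and 23.3 CPM in LB and 1.06 and 1.39 in LBPXRS, and Prdm1 and Tfap2a had log2 ratios of -1.75 and -1.45. Gata2, at 1.69 and 26.8 CPM, and Tfap2c, at 21.5 and 49.1, joined Id4 in the other direction. Skil, Smurf2, Prdm1, Tfap2a and Tfap2c were named after their values were seen. Against the naive-like LB cluster the counts became 5 lower and 6 higher of 42 genes, where 6.89% and 10.6% of all genes were lower and higher.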

How the data were processed

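The deposited matrices hold UMI counts per gene and cell barcode, made by the authors with Cell Ranger 4.0.0 on mm10, per the submitters' processing notes and the file headers; annotation and cell calling settings are not given in the sources used here. Barcodes with under 1000 genes or over 10% mitochondrial UMIs were left out (225 of 2008 in LB, 406 of 3111 in LBPXRS). Scrublet in scanpy 1.11.5 marked 12 LB (0.673%) and 14 LBPXRS cells (0.518%) as doublets; they were kept. CPM used the total of kept cells, and log2 ratios a pseudocount of 1, which understates changes of low genes. Thinning to 5000 UMIs left out 50 LB and 84 LBPXRS shallower cells. Co-expression is the number of thinned cells with both genes over that expected from the 2 shares. Clusters were made per library (10000 UMIs, 2000 variable genes less the pathway genes, 30 components, 15 neighbours, Leiden resolution 0.5) and named where at least 3 markers of 1 list at a CPM of at least 5 had a log2 ratio of at least 1, no other list had as many, and the median over that list's detected markers was at least 1. A cluster stayed unnamed if its 10 leading genes held more markers of another list than of its own. It also did so if its median depth was under 1/3 of the library's with no own marker among them. Chromosomes and positions are from GENCODE M21 (GRCm38). TMM factors came from edgeR 4.0.16, used for scaling only. Scripts were tested on simulated data. The genes, lists and naming thresholds were chosen with earlier results of these data known. Named genes are the 10, the markers, the 3 most alike genes of each gene in at least 10% of thinned cells, and, from the pathway list, those reaching 10 CPM that differed 4-fold, and the 2 most abundant of each role.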

Additional observations from a re-analysis of the deposited data

How the results depend on the processing

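The 4 genes lower and 3 at least 4-fold lower in LBPXRS were counted again under 15 alternatives, among them TMM and median-of-ratios scaling, all barcodes, a stricter cell filter, and omission of doublets, of shared barcodes and of cells under 0.5% mitochondrial UMIs. The count of 4 became 3 in LB cells without T or Hand1, in the naive-like cluster and in all 3 clusters with naive markers, and 2 in the unnamed Calb2 and Slc7a3 clusters. The count of 3 became 2 in the latter pair of settings, where Id1 left it. The log2 ratio of Bambi reversed to 0.59 in the naive-like cluster, 0.52 in all 3 clusters and 0.34 in the unnamed ones, and 5, 5 and 4 pathway genes were at least 2-fold lower in place of 12. In the unnamed clusters 7 pathway genes were higher in place of 4, and in all 3 clusters 0 of the 10 genes were at least 2-fold higher in place of 1 (Id4 at 0.98); in the unnamed ones Id4 was at 0.75 and the gene past 2-fold was Id2. Over all genes 6.89%, 6.46% and 6.47% were lower in the naive-like, all 3 and unnamed clusters, and 10.6%, 9.93% and 10.7% higher, with 42, 43 and 43 pathway genes above the minimum. In the other settings the 12 lower pathway genes ranged from 8 (LB cells without T or Hand1) over 11 (both scalings, doublets left out, per-cell means) and 13 (stricter filter, totals without chromosomes 8, 11 and Y, low-mitochondrial cells left out) to 14 (no minimum) and 15 (pseudocount 0.1). Of all genes 8.41% were lower in LB cells without T or Hand1, with 45 pathway genes above the minimum. With no minimum 7.29% were lower, with 64 pathway genes counted, and with pseudocount 0.1 14.4%, with 46. In the settings with 11 or 13 the share lay between 9.03% and 13.7%, with 46. A pseudocount of 0.1 put 2 genes past 2-fold in the higher direction in place of 1, Smad9 joining Id4, against 11.2% of all genes. Id1, Id3, Id4, Smad7 and Bmp4 kept their sign in 15 of 15 alternatives, Smad9 and Bmpr1a in 14, Id2 and Bambi in 12 and Smad6 in 11. The scaling moved the median log2 ratio of all genes from -0.14 to 0.0031 (TMM) or 0.024 (median of ratios).

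For co-expression in LB, the number of genes at or under 1/1.5 of the expectation went from 1 to 0 for Hand1 when unthinned or thinned to 10000 UMIs, from 1 to 0 for Krt8 in these settings and with a gate of 2 UMIs, and from 0 to 1 for T at these depths and outside the naive-like cluster. With the unnamed naive-marker clusters left out too, it was 1 for T and 0 for Krt8. The number at least 1.5 times expected for Krt8 went from 3 to 0 unthinned, to 1 outside the naive-like cluster and to 0 with the unnamed ones left out too. The gene below 1/1.5 for T was Smad9 unthinned, Id4 with 10000 UMIs and Bambi outside the naive-like cluster. The causes were not tested. The range over clusters was at least 4-fold for 6 genes at Leiden resolution 1 as well. For co-expression and for this range, the share over all genes was counted in the main setting only.

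No paired analysis was possible because each condition has 1 library, and no replicate was there to leave out. Depth limits Smad9 (44 UMIs in LB) and Bmp4 in LBPXRS (21 UMIs).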
